A study of Mus musculus with 3 samples.

Results

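From the 50600 genes in the deposited count tables, 10 were chosen that encode receptors of the CD28 family, other coinhibitory receptors, or ligands of such receptors. These are Cd28, Icos, Ctla4, Pdcd1, Btla, Cd274, Lag3, Tigit, Havcr2 and Cd200. They were taken by symbol, after matching each gene identifier to GENCODE, and all 10 were found. The samples are 3 RNA-seq libraries of T-helper 1 (Th1) cells, a lineage of CD4 T cells. The labels name the mouse strain C57BL/6NJ and primary cells, 1 donor entry for all 3 libraries, biological replicates 1, 2 and 3, and no treatment, sex or age. File headers add 24 hr. All libraries belong to 1 group, so the values below describe levels, their order, and how far the libraries differed.

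CD28 gives an activated T cell the costimulatory signal that accompanies antigen recognition, and ICOS is a related receptor that appears after activation. CTLA-4 competes with CD28 for the same B7 ligands on antigen-presenting cells, while PD-1, the product of Pdcd1, and BTLA recruit phosphatases that dampen receptor signals. LAG-3, TIGIT and TIM-3 (the product of Havcr2) are further inhibitory receptors, and TIM-3 is known as a surface marker of mouse Th1 cells. Cd274 encodes PD-L1, the ligand of PD-1, and Cd200 encodes a membrane ligand whose receptor is best known on myeloid cells.

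Total counts were 3553547, 2945353 and 3369468 read pairs in replicates 1, 2 and 3. Levels are in TPM, in which counts per base of exon are scaled to 1 fixed sum per library, as mean ± SD over the libraries (n = 3). The labels give each replicate a biosample entry of its own and all 3 the same donor entry. They do not say whether these were separate animals or cultures. The p-values below ask only whether the counts of these samples differ by more than counting error, and part of such a difference may be technical. Genes whose exons overlap an opposite-strand gene (called overlapped) made up 16.2% of all genes and took between 68 and 77.5% of the counts. Pairs were counted with strand option 1 on annotated exons, and which strand the kit keeps is not stated in the sources read here. If that option was opposite to the kit, a gene with no such overlap would keep only a remainder of its own reads. Every level below is therefore a level of counted pairs, and a count of 0 does not show that the mRNA was missing.

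The labelled cell type was checked against its markers. Of 15 genes on the CD4 T cell and Th1 list 12 had at least 1 TPM in every library, beside 41.2% of protein-coding genes. Trac, a T cell receptor constant gene, stood at 196 ± 73.4 TPM, Trbc2 at 117 ± 35.2, Cd5 at 110 ± 27.1 and Cd4 at 105 ± 29.7. The Th1 factor gene Tbx21 had 15, 11 and 8 counts, Ifng had 2, 2 and 1, the chemokine receptor gene Cxcr3 had 2, 1 and 1, and Hlx had 0 in each library. T cell genes were thus well counted, while Ifng, Cxcr3 and Hlx were at or under 3 counts, the limit that a count of 0 allows, and Tbx21 was low. Of 11 genes on this list tested between libraries, as described further on, 6 passed (Cd3d, Cd3g, Cd4, Trac, Trbc1 and Il12rb2, which overlaps Serbp1), beside 37.8% of all genes. With TMM over isolated genes Trac and Il12rb2 kept the call, the other 4 lost it and Cd3e gained one.

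Promoter sequences from RefSeq (GRCm38.p6, the same assembly as mm10) matched 7 of the 10 genes, and those of Cd28, Icos and Lag3 were not used here. The 4 shown are those of the highest gene (Cd200), of 2 inhibitory receptors of the CD28 family (Pdcd1 and Ctla4), and of the gene with no counts (Havcr2). Each is the 250 bases before the RefSeq start, written along the strand of the gene. Capitals mark matches to the core of NFAT sites, searched as GGAAA on both strands (its reverse complement reads TTTCC), and to the AP-1 site TGANTCA.
Cd200 promoter, chr16:45409054-45409303, minus strand: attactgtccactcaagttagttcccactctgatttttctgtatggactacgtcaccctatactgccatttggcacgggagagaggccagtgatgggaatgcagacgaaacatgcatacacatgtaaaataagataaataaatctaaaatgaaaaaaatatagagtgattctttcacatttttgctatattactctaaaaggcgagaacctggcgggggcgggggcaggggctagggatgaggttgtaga
Pdcd1 promoter, chr1:94052554-94052803, minus strand: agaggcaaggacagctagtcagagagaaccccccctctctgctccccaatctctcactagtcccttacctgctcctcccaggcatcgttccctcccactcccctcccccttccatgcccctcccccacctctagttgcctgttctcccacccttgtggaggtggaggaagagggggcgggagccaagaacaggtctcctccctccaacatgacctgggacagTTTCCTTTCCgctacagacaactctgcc
Ctla4 promoter, chr1:60908775-60909024, plus strand: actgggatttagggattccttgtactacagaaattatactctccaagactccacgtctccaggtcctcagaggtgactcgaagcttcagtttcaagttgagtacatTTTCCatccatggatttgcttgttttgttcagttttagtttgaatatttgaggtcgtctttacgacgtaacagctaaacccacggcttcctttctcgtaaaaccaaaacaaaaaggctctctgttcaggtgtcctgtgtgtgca
Havcr2 promoter, chr11:46454681-46454930, plus strand: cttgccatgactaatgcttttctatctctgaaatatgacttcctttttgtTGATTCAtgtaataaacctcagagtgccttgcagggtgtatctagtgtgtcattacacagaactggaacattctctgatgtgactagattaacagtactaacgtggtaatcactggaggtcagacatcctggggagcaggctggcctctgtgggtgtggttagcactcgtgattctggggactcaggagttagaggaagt

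NFAT and AP-1 are factors induced by T cell receptor and CD28 signals. Pdcd1 had 2 adjacent NFAT core matches, at positions -28 to -24 and -23 to -19 from the start, and Ctla4 had 1 at -144 to -140. Over the 7 genes the NFAT core was found in 4 (Ctla4, Pdcd1, Cd274 and Tigit), against 55.6% of all 32851 RefSeq promoter windows of the same length. The AP-1 site was found in Havcr2 alone, at -200 to -194, against 6.75% of all windows. None of the 7 held the interferon-response GAS element TTCNNNGAA (7.02% of all windows) or TATAAA (12.4%). The highest gene, Cd200, had no match to any of the 4 motifs, and the gene without counts had the AP-1 match. Such matches describe letters in these windows and not binding, and a link between matches and level was not tested.

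Cd28 and its relatives Ctla4 and Icos lie side by side on chromosome 1, all on the plus strand, within 283521 bases. Cd28 (ENSMUSG00000026012, mm10 chromosome 1, 60716800 to 60773359) had 225, 87 and 169 counts in replicates 1, 2 and 3. That is 19.3, 8.13 and 14.8 TPM, or 14.1 ± 5.64. Icos (ENSMUSG00000026009, 60977927 to 61000320) had 97, 33 and 66 counts, or 14.9, 5.5 and 10.3 TPM, with a mean of 10.2 ± 4.69. Both costimulatory genes were highest in replicate 1 and lowest in replicate 2, and their ranges overlap.

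Ctla4 (ENSMUSG00000026011, 60887000 to 60915832), the inhibitory gene between them, had 145, 75 and 149 counts. Its levels were 32.7, 18.4 and 34.2 TPM, or 28.5 ± 8.73, low in replicate 2 and alike in the other two. Per exon length Ctla4 was above Cd28 in 3 of 3 libraries, by 2.07-fold (log2 ratio 1.05 ± 0.25), and above Icos in 3 of 3, by 2.9-fold (log2 ratio 1.54 ± 0.35). Icos was below Cd28 in 3 of 3 libraries (log2 ratio -0.49 ± 0.10). These ratios depend on the exon length of the deposited files, which for Cd28 is 6122 bases while its longest coding transcript has 4347. With transcript lengths, Cd28 stood at 51.8, 20 and 38.9 counts per kb and Ctla4 at 75, 38.8 and 77.1.

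Between the start of Cd28 and the end of Icos the annotation holds 9 other genes, of which 4 had no count in any library. Gm11579, a lincRNA gene on the minus strand 3306 bases past Cd28, had 30, 26 and 24 counts (17.2 ± 1.78 TPM). Its TPM in replicate 2 lay between those of the other libraries, unlike that of Cd28. Gm37198, on the plus strand within the span of Gm11579, had 4, 3 and 6 counts. The pseudogene Rpl18-ps1, within the span of Ctla4, had 0, 3 and 0. The remaining pair with counts, 2310016D23Rik and Gm38137, had no more than 1 count per library. Cd28 and Ctla4 are 113640 bases apart and Ctla4 and Icos 62094, and Gm11579 had the most counts of the other genes in the interval. The RefSeq start of Ctla4 lies 22025 bases inside the GENCODE gene, so the promoter printed above is that of the shorter gene model.

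**Figure D1:**
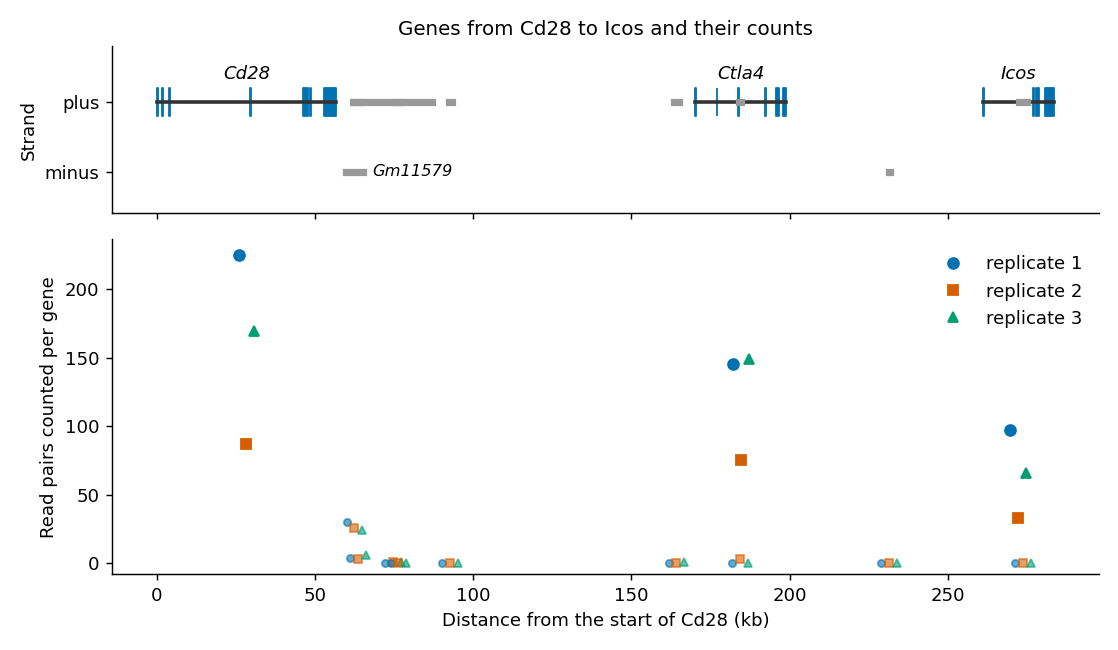
The stretch from Cd28 to Icos, drawn to scale as distance in kb from the start of Cd28, with exons as blue blocks and other genes as grey bars (top), and the read pairs counted on each gene in each of the 3 libraries (bottom, larger symbols for the 3 receptor genes). Cd28, Ctla4 and Icos carry between 33 and 225 counts per library, and no other gene there is above 30.

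Pdcd1 and Btla were the highest of the receptor genes. Pdcd1 (ENSMUSG00000026285, chromosome 1, 94038305 to 94052553, minus strand) had 242, 97 and 197 counts. Its levels were 66, 28.7 and 54.6 TPM, or 49.8 ± 19.1. Btla (ENSMUSG00000052013, chromosome 16, 45224315 to 45252895), whose product binds the herpesvirus entry mediator, had 384, 151 and 270 counts, or 62, 26.5 and 44.4 TPM (mean 44.3 ± 17.8). In both genes replicate 2 was the low library. The level of Pdcd1 was at percentile 94.2 and that of Btla at percentile 93.6 of all 21764 protein-coding genes.

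Cd274 (ENSMUSG00000016496, chromosome 19, 29367455 to 29388095), the gene of the PD-1 ligand, had 211, 118 and 187 counts. At 30.6, 18.6 and 27.6 TPM, or 25.6 ± 6.25, it varied least of the 9 counted genes, with an SD of 24.4% of its mean. Receptor and ligand of this pathway were thus counted in the same libraries, with Pdcd1 above Cd274 in 3 of 3 libraries by 1.87-fold (log2 ratio 0.90 ± 0.25). Only 65 bases separate Cd274 from Plgrkt on the opposite strand, the plasminogen receptor gene, which had 74, 38 and 66 counts (8.42 ± 2.39 TPM). No exon bases are shared between the pair.

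Cd200 stood above every other gene of the group in each library. Cd200 (ENSMUSG00000022661, chromosome 16, 45382135 to 45409053, minus strand) had 565, 270 and 449 counts. These are 89.5, 46.5 and 72.3 TPM, or 69.5 ± 21.6, at percentile 95.7 of protein-coding genes. It is the next annotated gene after Btla, 129239 bases away and on the other strand, with no gene between them. The nearest gene opposite Cd200, the pseudogene Gm5406, had 1, 4 and 2 counts.

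Lag3, Tigit and Havcr2 were lower. Lag3 (ENSMUSG00000030124, chromosome 6, 124904361 to 124911705, minus strand), whose product binds MHC class II, had 114, 56 and 68 counts. At 28.4, 15.2 and 17.3 TPM, or 20.3 ± 7.13, it was the only counted gene whose replicate 3 lay near replicate 2. Tigit (ENSMUSG00000071552, chromosome 16, 43648861 to 43664184, minus strand), whose product binds the poliovirus receptor, had 22, 13 and 23 counts. Its levels were 12, 7.72 and 12.8 TPM, or 10.8 ± 2.73. The exact Poisson 95% intervals of its counts in replicates 1 and 2 ran from 13.8 to 33.3 and from 6.92 to 22.2, and a difference between them was not detectable at this depth. Such intervals, like the limit for a count of 0, leave out all but counting error, because pairs carry no molecular identifier and duplicates cannot be told from separate molecules.

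Havcr2 (ENSMUSG00000020399, chromosome 11, 46454935 to 46481255) had 0 counts in each library. Over its 2721 bases of exon, the limit of 3 counts used here for a count of 0 is 0.58, 0.631 and 0.59 TPM, and the exact Poisson 95% interval of the kind given for Tigit reaches further, to 3.69 counts. Its nearest opposite-strand gene, the pseudogene Gm12168, had 3, 0 and 0 counts, while the lincRNA gene 2310031A07Rik, 7687 bases away on the opposite strand, had 1464, 1487 and 1431. The locus of the TIM-3 gene thus lay beside a gene with high and even counts and held none itself.

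**Figure D2:**
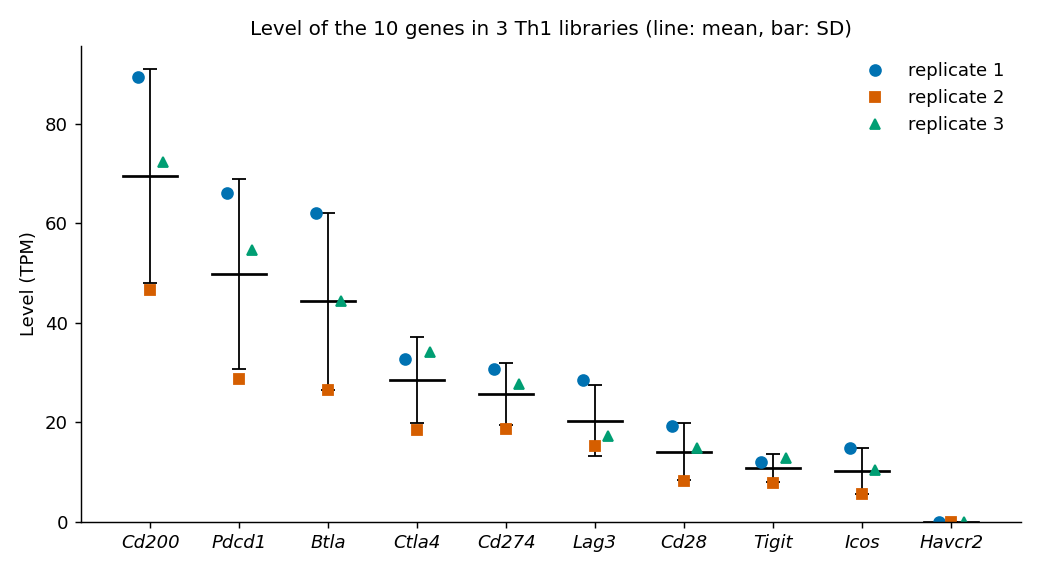
Level in TPM of each of the 10 genes in replicates 1 (circles), 2 (squares) and 3 (triangles), ordered by mean, with the mean as a line and the SD as a bar. Cd200 leads at 69.5 TPM, replicate 2 is the lowest library for all 9 genes with counts, and Havcr2 is at 0.

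In all, 9 of the 10 genes had at least 1 TPM in every library, against 41.2% of protein-coding genes. The median over the 10 was 22.9 ± 6.39 TPM, beside 0.386 ± 0.0703 for all protein-coding genes. Protein-coding genes with at least 1 TPM in every library had a median of 9.77 ± 2.29 TPM. The order by mean level was Cd200, Pdcd1, Btla, Ctla4, Cd274, Lag3, Cd28, Tigit, Icos and Havcr2. The first 3 places and those of Lag3, Cd28 and Havcr2 were the same in 3 of 3 libraries. Ctla4 and Cd274 exchanged places in replicate 2, as did Tigit and Icos in replicate 1.

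Neighbours in this order were compared within each library by the log2 ratio of counts per kb, since an exact sign-flip test over 3 libraries cannot go below p = 0.25. Cd200 exceeded Pdcd1 by 0.51 ± 0.16 and Pdcd1 exceeded Btla by 0.17 ± 0.11. Btla exceeded Ctla4 by 0.61 ± 0.28, Cd274 exceeded Lag3 by 0.36 ± 0.29, and Lag3 exceeded Cd28 by 0.56 ± 0.34. Each of these held in 3 of 3 libraries and was larger than its SD with the deposited exon lengths. With the length of the longest coding transcript, Lag3 over Cd28 came to 0.14, with Lag3 below Cd28 in replicate 3 (34 against 38.9 counts per kb), and Cd274 over Lag3 to 0.28. Cd28 over Tigit then came to 0.75, Ctla4 over Cd274 to 0.40 and Cd200 over Pdcd1 to 1.01. The other neighbours, by exon length, did not differ beyond their spread: Ctla4 and Cd274 (0.13 ± 0.17, 2 of 3 libraries), Cd28 and Tigit (0.32 ± 0.32, 3 of 3) and Tigit and Icos (0.16 ± 0.42, 2 of 3). Without division by exon length, Btla was above Pdcd1 and Cd28 above Lag3 (log2 ratios -0.59 and -0.98). Cd274 was then also above Ctla4 and Icos above Tigit (log2 ratios -0.51 and -1.67).

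As shares of their summed counts per kb, the 10 genes divided much alike in the 3 libraries although the sum itself did not stay constant. The summed level was 356, 175 and 288 TPM in replicates 1, 2 and 3. Cd200 took 25.2, 26.5 and 25.1% of it, Pdcd1 18.6, 16.4 and 18.9%, and Btla 17.4, 15.1 and 15.4%. Ctla4 took 10.5% ± 1.33, Cd274 9.61% ± 1, Lag3 7.55% ± 1.39, Cd28 5.07% ± 0.404, Tigit 4.07% ± 0.6 and Icos 3.63% ± 0.526. The sum thus differed more between libraries than the share of any of the 3 highest genes.

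All 9 counted genes had their lowest CPM, the count scaled by the library total alone, in replicate 2. From replicate 1 to replicate 2 the log2 CPM differed by -1.28 for Icos, -1.10 for Cd28, -1.08 for Btla, -1.05 for Pdcd1, -0.79 for Cd200, -0.75 for Lag3, -0.68 for Ctla4, -0.57 for Cd274 and -0.49 for Tigit. The median was -0.79, beside -0.43 for all 10216 genes tested. In bulk RNA, fewer cells with a transcript and less of it per cell cannot be told apart.

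The same difference followed the position of a gene relative to its opposite-strand neighbours. It had a median of -0.68 over 2483 isolated genes (no opposite-strand gene within 5000 bases), -0.58 over 2313 near genes (such a gene within 5000 bases, no overlap) and 0.04 over 4362 overlapped genes. Of the 10 genes, 6 are isolated and 4 near (Cd28, Cd274, Havcr2 and Cd200), and none is overlapped. Among isolated and near genes together, Icos lay at percentile 5.09 of this difference and Cd28, Btla and Pdcd1 at 10.9, 12.1 and 13.8. Cd200, Lag3, Ctla4, Cd274 and Tigit lay between percentiles 32.8 and 63.6. Against replicate 3 the percentiles differed: Pdcd1, Icos, Ctla4 and Cd28 lay between 13 and 16.9, Btla, Tigit, Cd200 and Cd274 between 26.6 and 47, and Lag3 at 83.7. Icos, Cd28 and Pdcd1 were thus toward the low end of the class in both differences, which share the counts of replicate 2.

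**Figure D3:**
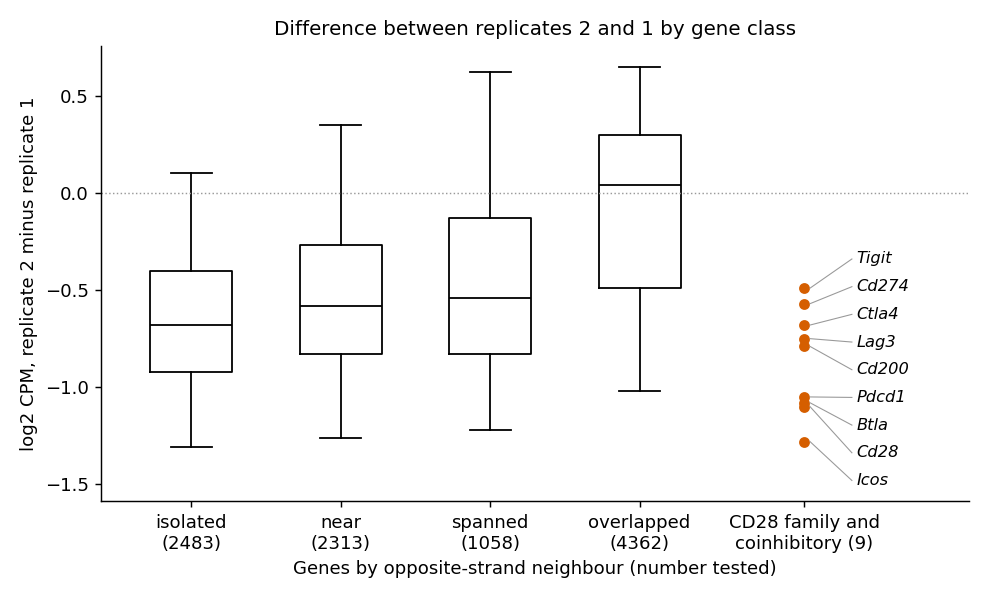
Difference in log2 CPM between replicates 2 and 1 for tested genes by opposite-strand neighbour, with boxes from the 25th to the 75th percentile, whiskers to the 5th and 95th and a line at the median, and the 9 counted genes of the group as points. Isolated genes have a median of -0.68 and overlapped genes of 0.04, and the points run from -1.28 (Icos) to -0.49 (Tigit).

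A chi-square test asked of each gene whether its 3 counts differed by more than Poisson error allows, given TMM-scaled library sizes, with Benjamini-Hochberg adjustment over all 10216 genes. It called 37.8% of them at an adjusted p under 0.05. Of the 9 genes tested here 5 passed: Btla (adjusted p = 1.54e-06), Cd200 (adjusted p = 0.00036), Cd28 (adjusted p = 0.000547), Pdcd1 (adjusted p = 0.000624) and Icos (adjusted p = 0.0112). Each of the 5 was lowest in replicate 2, a call made for 14.7% of all genes, 23.3% of isolated genes and 18% of near genes. After TMM scaling 8 of the 9 were lowest in replicate 2 (Lag3 in replicate 3), and the highest library exceeded the lowest by 1.94-fold for Icos, 1.71-fold for Cd28, 1.68-fold for Btla, 1.65-fold for Pdcd1 and 1.38-fold for Cd200. Ctla4 (adjusted p = 0.0513), Lag3 (adjusted p = 0.0565), Cd274 (adjusted p = 0.4) and Tigit (adjusted p = 0.78) did not pass, and Havcr2 was filtered out.

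With TMM computed over isolated genes alone, which takes up the shift of their class, 1 of the 9 passed. That was Btla (adjusted p = 0.0161), with scaled counts of 292, 218 and 245 and a 1.34-fold range, while 34.7% of all genes, 13.4% of isolated and 19.1% of near genes were called. Cd28 (adjusted p = 0.122), Pdcd1 (adjusted p = 0.153), Icos (adjusted p = 0.174) and Cd200 (adjusted p = 0.578) then did not pass. Cd200 had scaled counts of 430, 391 and 408, and Cd274 160, 171 and 170, so these were nearly level across the libraries. Without replicate 2, Btla was again the only gene of the group called (adjusted p = 0.0444), against 9.03% of all genes, so the calls of Cd28, Icos, Pdcd1 and Cd200 rest on that library. Without replicate 1, Icos lost its call (adjusted p = 0.158) and Ctla4 gained one (adjusted p = 0.0239). In replicate 2, isolated genes took 9.52% of all counts, against 14.1 and 12.9% in replicates 1 and 3. Whether counting by strand had a part in this was not tested.

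**Figure D4:**
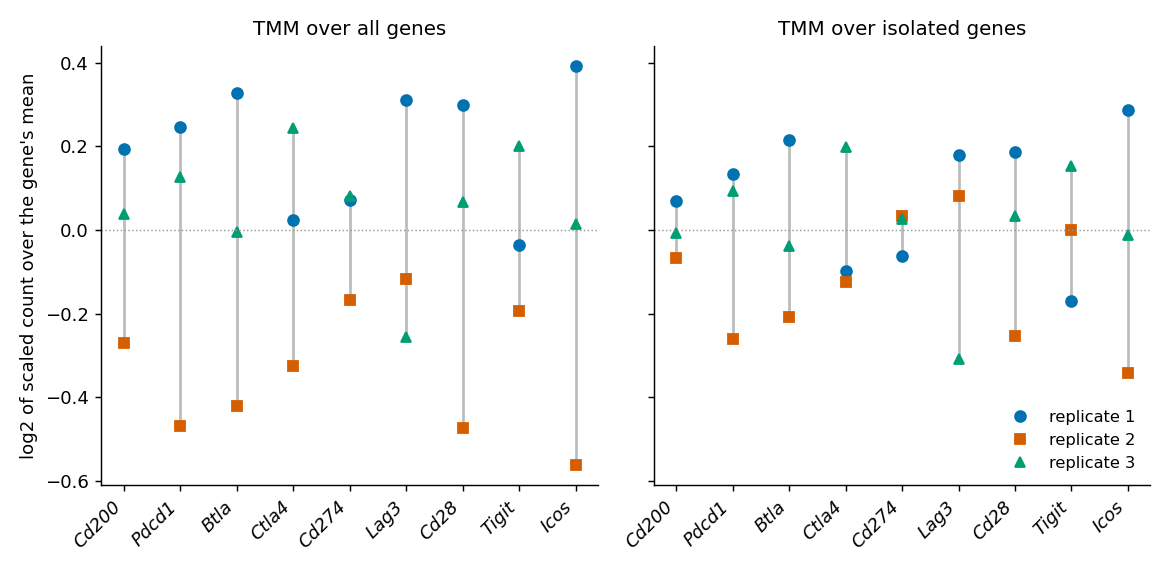
Scaled counts of the 9 counted genes in replicates 1, 2 and 3, as log2 over the mean of each gene, with library sizes scaled by TMM over all genes (left) or over isolated genes alone (right). The grey line spans the 3 libraries, and for Icos the span falls from 1.94-fold to 1.55-fold and for Cd200 from 1.38-fold to 1.1-fold.

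Ligands and partner receptors were mostly low beside the receptors. Of 16 genes on this list 7 had at least 1 TPM in every library, and the list median was 0.444 ± 0.195 TPM. As background for this and the lists below, 41.2% of all protein-coding genes reached that level, with a median of 0.386 ± 0.0703 TPM. The ligand list was thus near the values of protein-coding genes in general. The 3 highest were Hmgb1, a chromatin protein that TIM-3 also binds, at 55.8 ± 9.11 TPM (overlapping Uspl1), Lgals9, which encodes the TIM-3 ligand galectin-9, at 17.2 ± 5.62, and Pdcd1lg2, which encodes the other PD-1 ligand, at 11.1 ± 3.66. Hmgb1 was the only one of 5 tested that passed between libraries (chi-square test, adjusted p = 0.00808, and 9.5e-07 with TMM over isolated genes), and after TMM scaling it was lowest in replicate 1. Every lowest library named from here on is lowest after TMM scaling. The B7 genes had 9, 11 and 5 counts for Cd80 and 1, 2 and 6 for Cd86, and Icosl had 1, 0 and 0. Tnfrsf14, the partner of BTLA, had 14, 6 and 9 counts, and Pvr, that of TIGIT, 57, 27 and 58. Cd200r1, the receptor for CD200, had 1, 0 and 0. Each of Cd80, Cd86, Icosl, Pdcd1lg2, Tnfrsf14, Pvr and Cd200r1 thus had a lower mean TPM than the gene of the group that it pairs with. Hmgb1 and Lgals9 went the other way, since Havcr2 had 0 counts in each library.

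Other coinhibitory and paired receptors had 9 of 18 genes at 1 TPM or more in every library, with a median of 2.02 ± 0.25 TPM. Cd5 and Cd6, inhibitory scavenger receptors of T cells, stood at 110 ± 27.1 and 73.7 ± 9.83 TPM, and Cd72, known from B cells, at 322 ± 25.2 TPM, with exons that overlap Tesk1 on the other strand. The TIGIT relatives Cd226 and Cd96, which share its ligand, stood at 34.7 ± 6.12 and 17.1 ± 8.04 TPM, both above Tigit. Of 9 tested, Cd96 (chi-square test, adjusted p = 0.00421, lowest in replicate 2) and Cd72 (adjusted p = 1.2e-51, lowest in replicate 1) passed, beside 37.8% of all genes. With TMM over isolated genes Cd96 lost its call (adjusted p = 0.092), Cd72 kept it, and Vsir (adjusted p = 0.0393) and Cd6 (adjusted p = 4.41e-05) gained one. Klrg1, Pvrig, Lilrb4a and Entpd1 had 0 counts in each library.

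Signalling genes downstream of these receptors were detected but for Sh2d1b1, at 0 counts. All 14 costimulatory signalling genes were at 1 TPM or more in every library (median 17.3 ± 4.2 TPM), led by the adaptor gene Lcp2 at 66.5 ± 16.9 (overlapping 4930469K13Rik) and the kinase gene Akt1 at 50.4 ± 14.4. Of inhibitory signalling genes 17 of 18 were detected (median 16.3 ± 5.22 TPM). Ptpn6, which encodes the phosphatase SHP-1, stood at 152 ± 37.8 TPM (overlapping Gm20531), Csk, an inhibitor of Src family kinases, at 71.9 ± 18.9, and the adaptor gene Sla2 at 800 ± 24.5 (overlapping Rab5if). Ptpn11, the gene of SHP-2, the phosphatase that PD-1 binds, stood at 16.2 ± 4.77 TPM. Between libraries, where 37.8% of all genes passed, 7 of 14 costimulatory genes did so, each lowest in replicate 2, among them Pik3cd, Pdpk1, Akt1, Vav1, Lcp2 and Bcl10. Of inhibitory genes 13 of 17 passed, 10 of them lowest in replicate 2 (Ptpn6, Inpp5d, Csk, Cblb, Dgka, Dgkz, Ubash3b, Sh2d1a, Ppp2r1a and Ppp2ca), 2 lowest in replicate 3 (Ptpn22 and Ubash3a) and Sla2 lowest in replicate 1. With TMM over isolated genes all 7 costimulatory genes lost their call, and Pik3r1 (adjusted p = 0.0117) and Prkcq (adjusted p = 0.0495) gained one. Of the 13 inhibitory genes 3 kept it (Sh2d1a, Sla2 and Ppp2r1a).

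Genes for trafficking and turnover of the receptors were detected for 14 of 16 (median 14.9 ± 5.09 TPM). The highest were Ap1m1, an adaptor subunit gene, at 24.4 ± 9.14 TPM, Sla, which lowers T cell receptor levels, at 21.6 ± 7.39, and the small GTPase gene Rab8a at 21.2 ± 6.73. Lrba, which encodes a protein that keeps CTLA-4 from degradation, stood at 3 ± 0.903 TPM (overlapping Mab21l2), and Cmtm6, which stabilises PD-L1, at 14.9 ± 5.37. Of 16 tested 6 were called (Ap1m1, Rab8a, Sla, Rc3h2, Adam10 and Cop1), all lowest in replicate 2, beside 37.8% of all genes. With TMM over isolated genes all 6 lost the call, and Adam17 (adjusted p = 0.00339, overlapping Iah1) gained one. Transcription factors of T cell activation and state were detected for 17 of 24 (median 4.2 ± 1.22 TPM), led by Foxp3 at 120 ± 1.67 (overlapping Gm36995 and Ccdc22), Tcf7 at 105 ± 23.7 and Irf4 at 61.3 ± 20. Nfatc1, the NFAT gene induced by activation, stood at 23.6 ± 7.44 TPM, and Tox2 had 0 counts. Between libraries 10 of 15 passed (Nfatc1, Tox, Nr4a1, Nr4a3, Batf, Irf4, Stat3, Foxp3, Foxo1 and Nfkb1), beside 37.8% of all genes, and 6 of them were lowest in replicate 2. With TMM over isolated genes those 6 (Nfatc1, Tox, Nr4a3, Irf4, Foxo1 and Nfkb1) lost the call, and Nr4a1, Batf, Stat3 and Foxp3 kept it.

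**Figure D5:**
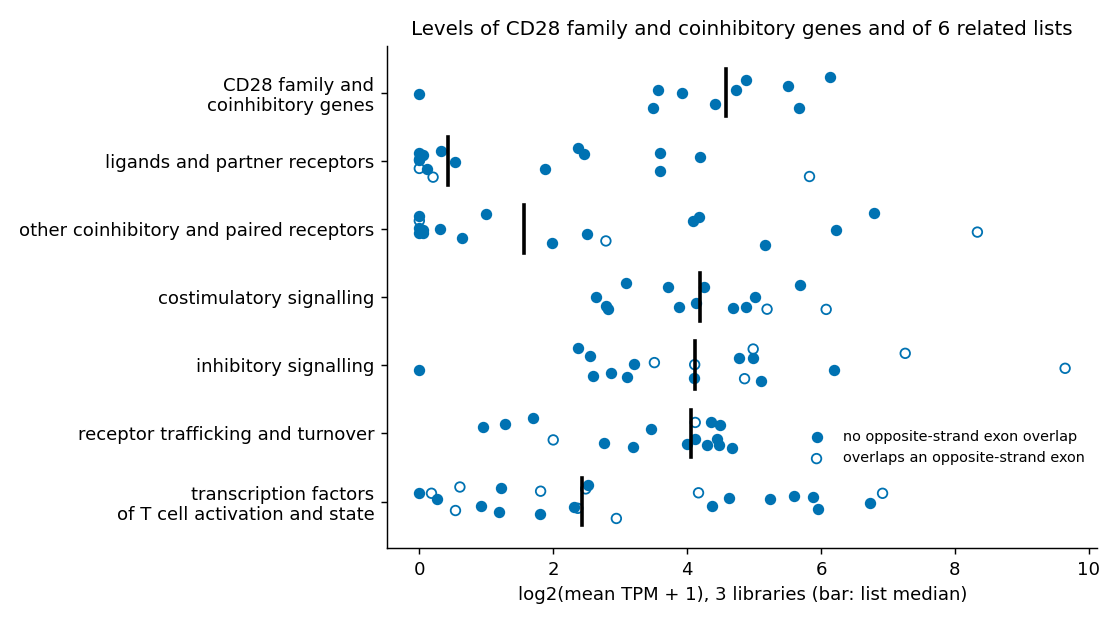
Mean level of each gene, as log2(mean TPM + 1) over the 3 libraries, for the CD28 family and coinhibitory genes and 6 related lists, with filled points for genes whose exons overlap no opposite-strand exon and open points for those that do. The median bar of the top row, at 23 TPM, lies right of those of the other lists.

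PD-L1 and CD200 are also made by other cells, so markers of those cells are given beside them. Dendritic cell markers had summed levels of 2.16, 1.72 and 2.27 TPM, with 5 of 10 at 0 (Flt3, Clec9a, Cd209a, Siglech and H2-Aa). Macrophage and monocyte markers summed to 166, 171 and 166 TPM, with 3 of 10 detected in every library: Csf1r at 160 ± 6.06 (overlapping Hmgxb3), Cd68 at 9.21, 2.73 and 2.98, and Cd163 at 2.81 ± 0.27. On that list Cd14, Lyz2, Itgam and Mertk were at 0. B cell markers summed to 66.6, 40.3 and 63.7 TPM, of which Ighm gave 56.9, 29.7 and 52.5, lowest in replicate 2 (chi-square test, adjusted p = 0.0369, and 0.551 with TMM over isolated genes), and Ms4a1 and Blk were at 0. NK and innate-like markers summed to between 1.23 and 2.43 TPM with 7 of 10 at 0. CD8 T cell markers summed to 11.4, 8.5 and 13.6 TPM, of which Cd8b1 gave 10.6, 7.71 and 13. Cd8a had 1 count in each library, and Gzmk was at 0. The macrophage and monocyte sum was above both Cd274 and Cd200 in every library, the B cell sum above Cd274 in every library, and the dendritic cell sum below both. The part of RNA from such cells in their levels was not tested.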

How the data were processed

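The 3 samples are RNA-seq libraries of Th1 cells, labelled total RNA sequencing with a library protocol for polyA RNA. Per the file headers, the authors counted read pairs per gene with featureCounts 1.4.6-p4 on exons of GENCODE M13 (both ends aligned, strand option 1, a directory named pe-stranded), and the deposited values are raw counts with exon lengths in bases, on mm10 per the labels. No aligner version is stated in the sources read here.

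From these counts TPM and CPM were computed. Symbols came from GENCODE M21 by identifier (50376 of 50600 matched). A gene was overlapped, spanned, near or isolated by its opposite-strand neighbours within 5000 bases. Spanned genes overlap the span of an opposite-strand gene but share no exon bases with any. The chi-square test (2 degrees of freedom) used edgeR's TMM and filterByExpr. It was tested on counts simulated with Poisson error at the same scaled library sizes. That setting does not cover other spread between libraries. With 1 group there is no contrast for a quasi-likelihood test. The genes and the 12 other lists (166 entries) were chosen with earlier results of these data known. Of each list the 3 genes with the highest TPM and those past the test are named, and ligands are also named for their receptor, and Cd226, Cd96, Ptpn11, Lrba, Cmtm6, Nfatc1 and the other Th1 and T cell markers for their role, and 2310031A07Rik for its counts, after values were seen. Some genes of these lists are not reported here. Software was R 4.3.3, edgeR 4.0.16, DESeq2 1.42.0, Python 3.11.15, numpy 2.4.6, pandas 2.3.3 and scipy 1.17.1.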

Additional observations from a re-analysis of the deposited data

How the results depend on the processing

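Alternatives were other scalings, filters, thresholds and lengths, and each library left out in turn. The number of the 9 tested genes called between libraries was 5, 8 with total counts in place of TMM (all but Tigit), and 1 with TMM over isolated genes only. It was 5 with DESeq2 size factors and without the filter, and between 1 and 5 with a library left out, the 1 being without replicate 2. Calls over all genes ranged from 970 without replicate 2 to 5278 with total counts, beside 3865. The number with at least 1 TPM in every library was 9 under each alternative. Genes with an opposite-strand gene within the window were 4, 1 at 1000 bases in place of 5000 and 7 at 10000 bases. Of 63 single-gene tests 9 lost and 4 gained a call. TPM over protein-coding genes only, or over isolated ones, raised all 9 levels through the smaller denominator, for Cd28 from 14.1 to 34.3 and 202 TPM and for Pdcd1 from 49.8 to 121 and 716. Among 40 log2 ratios of neighbours, sign changes came with counts not divided by exon length. They concerned Pdcd1 to Btla (-0.59), Lag3 to Cd28 (-0.98), Ctla4 to Cd274 (-0.51) and Tigit to Icos (-1.67). Transcript length, an alternative chosen after seeing the data, reversed no mean and moved 4 of the 8 ratios beyond 1 SD, with Lag3 to Cd28 at 0.14 and Cd28 to Tigit at 0.75. Depth limits Tigit, at 13 to 23 counts, and Havcr2, at 0. No paired analysis was possible because there is 1 group.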
